A study of Mus musculus with 6 samples.

Results

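Libraries labelled extraction day 1 were compared with libraries labelled extraction day 2. The series holds 6 RNA-seq libraries of mouse primary hepatocytes, of which 2 carry the day 1 label and 4 the day 2 label, and the day label alone chose the members. Day 1 comprised Sucnr1 fl/fl replicate 1 and Hep-Sucnr1 KO replicate 3. Day 2 comprised Sucnr1 fl/fl replicates 2 and 3 and Hep-Sucnr1 KO replicates 4 and 5. Replicates are numbered as in the labels, and each library came from a separate mouse per the design text of the series. All mice were fed chow and had Sucnr1, which encodes a receptor for succinate, flanked by loxP sites. Hep-Sucnr1 KO mice also carried 1 Cre transgene under the albumin promoter, which is active in hepatocytes, from a line on a C57BL6J background, so the other cell types of the liver keep the gene, whereas Sucnr1 fl/fl controls had no Cre. Hepatocytes of the left lateral lobe were isolated by enzymatic perfusion and a density gradient and kept on collagen overnight in attachment medium without further treatment. The labels do not say whether the day is that of the isolation of cells or that of the RNA extraction, and the age and sex of these mice are not in the labels. Every difference below is day 1 minus day 2 with genotype as covariate, and the question is which genes and functions go with the day. With 1 library per genotype on day 1, the day, the mouse and its culture cannot be told apart.

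Many of the genes lower on day 1 belonged to the interferon response. Interferons are cytokines made by cells that sense viral or misplaced nucleic acid. They bind receptors that activate JAK1 and TYK2, which phosphorylate STAT proteins, and these join IRF9 to switch on interferon-stimulated genes through a promoter element named the interferon-stimulated response element (ISRE). The products degrade foreign RNA, block its translation or raise antigen presentation, and both hepatocytes and Kupffer cells, the resident macrophages of the liver, carry the pathway.

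Promoter stretches of 4 strongly expressed interferon-stimulated genes are shown, since the genes that were lower on day 1 often hold the core of this element (values further below). Each is the 120 bases before the RefSeq transcript start on GRCm38.p6, written 5′ to 3′ on the strand of the gene, with matches to the core (GAAANNGAA or its reverse complement) in capitals. They lie at chr4:156200819-156200938 (minus strand) for Isg15, chr19:34640769-34640888 (plus) for Ifit1, chr19:34583409-34583528 (plus) for Ifit3 and chr12:26456453-26456572 (minus) for Rsad2. The match that opens the Ifit3 stretch lacks its first base, which lies just outside.
Isg15: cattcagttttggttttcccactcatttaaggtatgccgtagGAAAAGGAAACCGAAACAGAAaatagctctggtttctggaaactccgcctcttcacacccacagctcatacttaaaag
Ifit1: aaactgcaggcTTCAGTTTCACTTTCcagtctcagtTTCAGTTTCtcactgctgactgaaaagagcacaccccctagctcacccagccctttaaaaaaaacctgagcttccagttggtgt
Ifit3: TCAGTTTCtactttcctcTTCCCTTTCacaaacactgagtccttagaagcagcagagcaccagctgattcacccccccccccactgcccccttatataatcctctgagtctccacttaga
Rsad2: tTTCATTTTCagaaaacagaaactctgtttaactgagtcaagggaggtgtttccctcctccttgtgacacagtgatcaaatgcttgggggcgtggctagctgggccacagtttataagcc

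Library totals lay between 30504248 and 38770694 counts, and the TMM factors that scale them between 0.9536 and 1.09. Sucnr1, the deleted gene, had 258 and 84 counts in the fl/fl and KO libraries of day 1, against 118 and 103 in the other fl/fl and 28 and 5 in the other KO libraries. Every KO library was below every fl/fl library, and the highest count of each genotype was on day 1. Its day difference was 1.64 ± 0.53 (log2 fold change ± SE, edgeR FDR 0.548), or 0.99 without KO replicate 3 and 2.43 without fl/fl replicate 1, and the days overlapped. None of 8 library measures (total counts, genes detected, the share of the 20 most abundant genes, of the mitochondrial genome and of 4 gene length classes) could pass a threshold of 0.05 in a two-sided exact permutation test, where 15 arrangements of 2 against 4 libraries cannot give a p below 0.0667. The mitochondrial share of counts was the closest, at 8.34% on day 1 against 9.40 ± 0.388% (SD, n = 4) on day 2 (exact p = 0.133, adjusted 0.8 over the 8 measures). Hepatocyte markers were abundant in all libraries, with 37120 to 68925 CPM (counts scaled to the library total with TMM factors) of Alb. All were male by expression, with at most 1 count of Xist and 54.7 to 69.2 CPM of the Y-linked Ddx3y. Leukocyte transcripts differed between libraries of the same day. Sucnr1 fl/fl replicate 2 held fewer leukocyte transcripts than the other day 2 libraries (69.6 CPM summed over the Kupffer cell list, against 157 to 234), and of the day 1 libraries Hep-Sucnr1 KO replicate 3 had 41.6 and Sucnr1 fl/fl replicate 1 had 95.7. Medians of immune lists are therefore also given without fl/fl replicate 2 or KO replicate 3. The library indexes fall into a low and a high number series, and the low series holds Sucnr1 fl/fl replicates 1 and 2, 1 of each day, so the index crosses the day but is confounded in part with genotype.

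Most genes with evidence of a day difference were lower on day 1. edgeR's quasi-likelihood test called 0 of 15105 genes (0.0%) at an FDR of 0.05, with a smallest FDR of 0.192, and the 18 genes with an FDR below 0.20 were all lower. At an unadjusted p below 0.05 it counted 780 genes lower (5.16%) and 352 higher (2.33%) on day 1. DESeq2 on the same counts and covariate called 206 genes lower (1.51% of the 13640 with an adjusted p) and 21 higher (0.154%), and of these 199 and 20 did not overlap between the days. CPM of the days did not overlap, with both day 1 libraries below all 4 of day 2, in 1285 genes (8.51%), and with both above in 950 (6.29%). Past a fold of 2 the same counts were 488 and 60. The median log2 fold change over all genes was -0.017. The edgeR count changed with 1 library left out and with the filter. Without Sucnr1 fl/fl replicate 2 it called 29 genes, all lower, 25 of them also called by DESeq2. The smallest FDR of that fit was 0.0493, just below the threshold. With no filter on low counts edgeR called 122 genes.

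Of the 206 genes that DESeq2 called lower, 19 were members of the interferon-stimulated list, 45 had other roles or families of the interferon system, 4 were antigen presentation genes and 5 were leukocyte markers, while 133 were in none of these lists. The roles and families were drawn up after values had been seen. A gene in none of these lists can still belong to the interferon system.

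Zbp1, a sensor of Z-form nucleic acid, had the smallest p. It lies on chromosome 2 from 173206612 to 173218923 (GRCm38, ENSMUSG00000027514). Its level was 18.8 and 16.2 CPM in the fl/fl and KO libraries of day 1, against 46.5 and 59.7 in fl/fl replicates 2 and 3 and 59.5 and 69.7 in KO replicates 4 and 5. Both day 1 libraries lay at less than 20 CPM and all of day 2 above 46, a log2 fold change of -1.74 ± 0.18 (edgeR FDR 0.192, DESeq2 adjusted p 4.06e-12). The other named genes with the smallest p among those lower on day 1 were Trim56, Parp10, Daxx and Lama3, and the rule that named them requires that the days do not overlap. Trim56, a ubiquitin ligase of antiviral signalling, had 43.3 and 39.3 CPM on day 1 and 80.8, 87.7, 83.6 and 78.1 on day 2 (-1.0 ± 0.11). Parp10, a mono-ADP-ribosyltransferase, had 18.1 and 18.04 CPM against 33.8, 37.9, 35.1 and 36.4 (-0.99 ± 0.11). Daxx, a histone chaperone, had 23.9 and 21.02 CPM against 44.8, 54.1, 46.6 and 49.8 (-1.12 ± 0.13). Lama3, a laminin chain of the basement membrane, had 6.09 and 6.87 CPM against 16.4, 16.8, 16.4 and 14.7 (-1.31 ± 0.14). The edgeR FDR of each of these 5 genes was 0.192, so none passed.

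Interferon-stimulated genes were lower in both day 1 libraries almost as a whole list. All 30 listed genes were tested, their median log2 fold change was -1.39 against -0.02 over all genes, and 27 (90.0%) were lower without overlap and 0 higher, beside 8.51% and 6.29% of all genes. edgeR called 0 of them, and 28 were lower at an unadjusted p below 0.05, beside 5.16% of all genes. DESeq2 called 19, beside 1.51% of all genes called lower. The median was -0.86 in the fl/fl libraries alone and -1.99 in the KO libraries alone. Leaving out Hep-Sucnr1 KO replicate 3 gave a median of -0.87, with 27 of 30 still below every day 2 library (25.5% of all genes were, with 1 day 1 library left), and leaving out Sucnr1 fl/fl replicate 2 gave -1.63 with 30 of 30 (14.9% of all genes). Without Sucnr1 fl/fl replicate 1 it was -1.99 with 29 of 30 (19.7%).

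**Figure D1:**
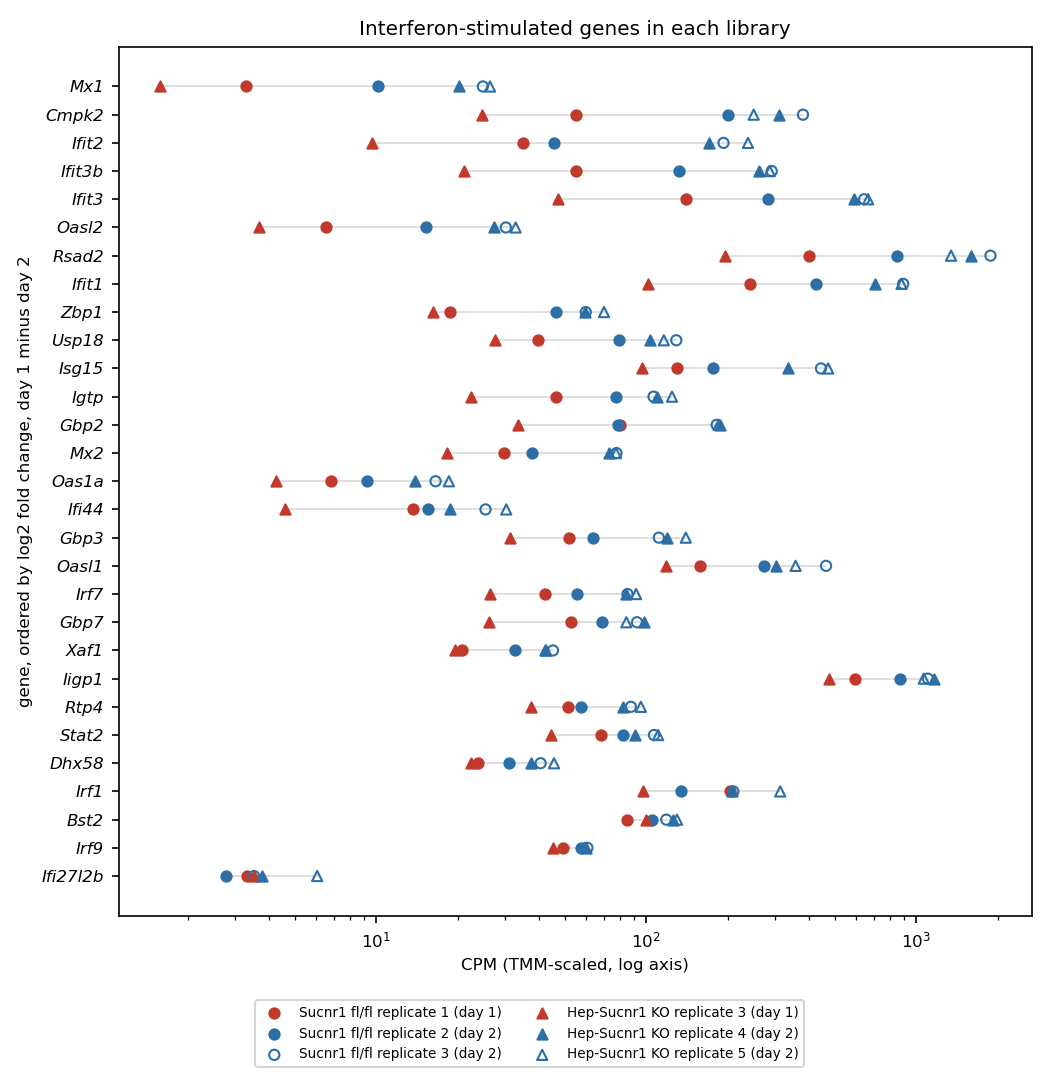
CPM (TMM-scaled, log axis) of interferon-stimulated genes in each of the 6 libraries, ordered by log2 fold change. Red marks are the day 1 libraries, blue marks day 2, circles Sucnr1 fl/fl and triangles Hep-Sucnr1 KO. In all genes plotted but Irf1, Gbp2 and Ifi27l2b both red marks lie left of every blue mark, and the filled blue circle, fl/fl replicate 2, is usually the lowest of day 2.

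The most abundant was Rsad2, which encodes viperin, an enzyme that makes a chain-terminating nucleotide. It had 401 and 195 CPM on day 1 and 848, 1882, 1591 and 1345 on day 2 (-2.30 ± 0.42, edgeR FDR 0.327, DESeq2 adjusted p 2.05e-07). Its neighbour Cmpk2, a mitochondrial nucleotide kinase, had 55.0 and 24.6 CPM against 201, 380, 311 and 250 (-2.92 ± 0.39, edgeR FDR 0.196). In both genes the highest day 1 library was far below the lowest day 2 library. Mx1, an antiviral GTPase, had the most negative fold change of the list, with 3.30 and 1.58 CPM against 10.1, 24.8, 20.3 and 26.4 (-3.04 ± 0.51). Isg15, a ubiquitin-like modifier, had 130 and 96.3 CPM against 177, 444, 334 and 471 (-1.64 ± 0.41). Usp18, which removes Isg15 from its targets and restrains the receptor, had 39.8 and 27.4 CPM against 79.3, 129, 103 and 116 (-1.68 ± 0.25). Without KO replicate 3 these differences were -1.72 (Rsad2), -2.36 (Cmpk2), -2.36 (Mx1), -1.21 (Isg15) and -1.35 (Usp18). The exceptions were Irf1, Gbp2 and Ifi27l2b, whose days overlapped. Irf1, a transcription factor that acts early in the response, had 204 and 97.3 CPM against 135, 210, 207 and 313.

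Members of the interferon system were grouped by role, and no test between roles was made. Interferon genes themselves were near zero: of 7 in the table none passed the filter, and no library had more than 10 counts of any. Ifnb1 had 6 and 3 counts on day 1 and 4, 4, 2 and 2 on day 2, and Ifng at most 1. The 6 receptor chains had a median log2 fold change of 0.17 (-0.17 without fl/fl replicate 1), none lower without overlap and 1, Ifngr1, higher. Ifnar1, a chain of the type I receptor, had 30.9 and 11.7 CPM against 26.6, 14.2, 10.7 and 12.6, and its partner Ifnar2 differed by -0.06 ± 0.12. The 7 adaptors and kinases had a median of -0.18, with 2 (28.6%) lower without overlap, beside 8.51% of all genes, and 0 called by DESeq2. Jak1 differed by 0.12 ± 0.17, Tyk2 by -0.18 ± 0.14 and Mavs, the mitochondrial adaptor of RNA sensing, by -0.13 ± 0.15. None of these 6 receptor chains and 7 adaptors and kinases was called by either tool, and 2 adaptors or kinases had an unadjusted p below 0.05.

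Among sensors, transcription factors and feedback regulators, many of them interferon-stimulated themselves, edgeR called 0 genes and DESeq2 called some as lower. Of 11 sensors tested 10 (90.9%) were lower without overlap, beside 8.51% of all genes, and DESeq2 called 8, beside 1.51% of all. Their median was -1.15, or -0.68 without KO replicate 3 and -1.28 without fl/fl replicate 2. Ifih1, which encodes the RNA sensor MDA5, had 59.8 and 47.5 CPM against 76.4, 101.6, 90.9 and 88.3 (-0.74 ± 0.16, and -0.53 without KO replicate 3). Eif2ak2, the RNA-activated kinase PKR, had 25.2 and 19.4 CPM against 44.8, 46.3, 42.6 and 42.3 (-0.99 ± 0.12, edgeR FDR 0.192), and the RNA-editing enzyme Adar differed by -0.91 ± 0.12. Of 10 transcription factors 5 (50%) were lower without overlap and 5 overlapped, and DESeq2 called 2. Their median was -0.70, or -0.30 without KO replicate 3 and -0.84 without fl/fl replicate 2. Irf7 had 42.2 and 26.3 CPM against 55.3, 85.2, 84.2 and 91.7 (-1.21 ± 0.28). Without KO replicate 3 the difference of Irf7 was -0.70. Irf3, which is present before induction, differed by -0.15 ± 0.11. Of 5 feedback regulators 4 (80%) were lower without overlap and DESeq2 called 3, with a median of -1.64, or -1.03 without KO replicate 3 and -1.83 without fl/fl replicate 2. Socs1 differed by -0.76 ± 0.21 (-0.50 without KO replicate 3), and Socs3, better known as a target of interleukin 6, by -0.05 ± 0.28.

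Effector families had medians between -2.67 and -0.25, and edgeR called 0 of their genes. All 6 Ifit genes, whose products bind viral RNA, were lower without overlap (median -2.67), as were the 8 Oas and Oasl genes tested (-1.92), both Mx genes (-2.25) and all 7 immunity-related GTPases (-1.45). DESeq2 called 4, 8, 2 and 7 of these. Over all genes 8.51% were lower without overlap and DESeq2 called 1.51% lower, the shares to set beside every family here. Of 11 Gbp genes, large GTPases that attack the vacuoles of microbes, 10 were lower (-1.94, 7 called), of 8 Slfn genes 5 (-1.76, 3 called), and of 12 Parp genes 8 (-0.55, 4 called). Of 44 Trim genes 13 (29.5%) were lower and 3 (6.82%) higher, beside 8.51% and 6.29% of all genes (-0.25, 8 called). All 3 Apol9 and Apol10 genes (-0.91) and all 4 Phf11 genes (-1.99) tested were lower, with 3 called in each. Without KO replicate 3 the medians were -1.70 for Ifit, -1.36 for Oas, -1.63 for Mx, -0.95 for immunity-related GTPase, -1.21 for Gbp, -1.18 for Slfn, -0.35 for Parp, -0.28 for Trim, -0.86 for Apol9 and Apol10 and -1.18 for Phf11 genes. Without fl/fl replicate 2 they lay between -3.04 (Ifit) and -0.16 (Trim). Apol9a had 112 and 128 CPM against 194, 225, 243 and 240 (-0.91 ± 0.13), and Iigp1, the most abundant of the immunity-related GTPases, 591 and 474 against 868, 1104, 1165 and 1065 (-0.98 ± 0.19). Members of the Ifit, Oas, Gbp, Slfn and Apol9 families and the Tgtp1 and Tgtp2 pair include near-identical copies, and the counting of reads that match more than 1 gene is not stated, so their single values are uncertain.

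Matches to the ISRE core were frequent in the promoters of the lower genes. RefSeq promoters (250 bases before to 50 after the start) were matched for 10497 of 15098 symbols tested, and 7.29% of them held GAAANNGAA on either strand. The share was 13 of 21 matched interferon-stimulated genes (61.9%), 52 of 146 genes that DESeq2 called lower (35.6%), 0 of 13 called higher and 1 of 11 Kupffer cell genes (9.09%). Isg15, Ifit1 and Ifit3, shown above, held 3 matches each and Rsad2 held 1. The window of Cmpk2 and that of Irf7, among others, had no match to these letters. The STAT motif TTCNNNGAA stood in 28.6% of the interferon-stimulated promoters against 7.07% of all, and the AP-1 motif TGANTCA in 23.8% against 5.26%. Of the 13 promoters with an ISRE core match, 1 had a match that overlapped one of a STAT, heat shock (GAANNTTC), NF-kB (GGGNNTTCC) or AP-1 motif. The ISRE core was added to the motifs after the data had been seen, and a match is a description of sequence only. Among the 13 promoters called higher, 3 (23.1%) held the E-box CACGTG and 2 (15.4%) the CRE TGACGTCA, against 10.2% and 3.07% of all. The shares for the CCAAT box and the D-box TTATGTAA were 46.2% and 0.0% in the higher group against 39.1% and 0.572%, and for the TATA box TATAAA 7.69% against 7.97%.

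Leukocyte genes were also lower on day 1, but with more overlap. The 15 Kupffer cell and macrophage genes had a median of -2.07, lower than that of the interferon list. Of these, 5 (33.3%) were lower without overlap, beside 8.51% of all genes. DESeq2 called 3, namely C1qa, Tyrobp and Fcer1g, beside 1.51% of all genes called lower. edgeR called 0, with 11 lower at an unadjusted p below 0.05, beside 5.16% of all genes. The summed level of the list was 41.6 to 95.7 CPM on day 1 and 69.6 to 234 CPM on day 2. Clec4f, a lectin of Kupffer cells, had 7.91 and 1.90 CPM against 8.09, 25.2, 24.8 and 15.7 (-2.02 ± 0.68, and -1.03 without KO replicate 3). Cd5l, a secreted macrophage protein, had 8.48 and 0.855 CPM against 6.68, 23.8, 21.1 and 17.4 (-2.11 ± 0.89, or -0.80 without KO replicate 3 and -4.49 without fl/fl replicate 1). Low values thus occurred in both day 1 libraries and in fl/fl replicate 2 of day 2, with KO replicate 3 far below the rest. Cd68, the most abundant member, is shared with other phagocytic cells and differed by 0.14 ± 0.34. The list median was -1.03 without KO replicate 3 and -3.41 without fl/fl replicate 1. Without fl/fl replicate 2 it was -2.58, with 13 of 15 lower without overlap, beside 14.9% of all genes. In bulk libraries, fewer cells of a type and less RNA per cell cannot be told apart.

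Other leukocyte lists were low in the same 3 libraries. Of 10 neutrophil genes 4 were tested (median -2.06), with 1 (25.0%) lower without overlap, beside 8.51% of all genes. The summed level of the list was 1.01 to 1.20 CPM on day 1 against 1.32 to 6.91 CPM on day 2. S100a9, a calcium-binding protein of neutrophils, had 7 and 7 counts on day 1 and 12, 57, 44 and 53 on day 2. In S100a8 and in Csf3r, the most abundant member, the days overlapped. Csf3r had 25 and 4 counts on day 1 against 21, 91, 124 and 86. S100a8 had 3 and 13 counts against 4, 26, 26 and 28. Of 7 lymphocyte genes 2 (28.6%) were lower without overlap (median -1.54). Cd3e had 3 counts or fewer in every library, and Ighm, the most abundant, differed by 0.50 ± 0.33. The 5 erythroid genes had a median of -1.43 (0.10 in fl/fl, -2.74 in KO) with 0 lower without overlap, and Alas2, the most abundant, differed by -0.06 ± 0.16. In the antigen presentation list 9 of 15 genes (60%) were lower without overlap (median -0.70), beside 8.51% of all genes. DESeq2 called Tap1, Nlrc5, H2-Aa and H2-Eb1, beside 1.51% of all genes called lower. H2-Aa, a class II chain of antigen-presenting cells, had 3.38 and 1.39 CPM against 4.39, 15.9, 14.8 and 13.9 (-2.34 ± 0.63). Tap1, the peptide transporter, had 59.96 and 41.8 CPM against 68.7, 117, 98.6 and 119 (-0.99 ± 0.27). The class I chains that all cells carry were nearer to level, with -0.09 ± 0.22 for H2-K1 and -0.12 ± 0.18 for B2m. Without KO replicate 3 the antigen presentation median was -0.31 and the differences of H2-Aa and Tap1 were -1.54 and -0.59. Without fl/fl replicate 2 all 15 genes of the list were lower without overlap (median -0.81), beside 14.9% of all genes. The lymphocyte median was -0.75 without KO replicate 3 and -1.93 without fl/fl replicate 2, and the neutrophil median -2.54 and -2.35. The erythroid median lay between -2.93 and -0.38 with 1 library left out.

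Among the fl/fl libraries, replicates 1 and 2 both held few leukocyte transcripts and were of different days. Sucnr1 fl/fl replicate 1 (day 1) was below fl/fl replicate 2 (day 2) in 27 of 30 interferon-stimulated genes, with a median log2 ratio of -0.41. It was below in 5 of 15 Kupffer cell genes (0.19), 9 of 15 antigen presentation genes (-0.03), 3 of 7 lymphocyte genes (0.03) and 3 of 4 neutrophil genes (-0.49). Any gene lower without overlap has this order by definition. Such genes numbered 27, 5 and 9 in the interferon, Kupffer cell and antigen presentation lists, so these counts restate that result. Within day 2, fl/fl replicate 2 was in turn below fl/fl replicate 3 by a median of -0.73 in the interferon list and -1.88 in the Kupffer cell list. Between the KO libraries of day 2 the order differed: replicate 4 had the higher Kupffer cell score (1.25 against 0.71 in replicate 5) and the lower interferon score (0.53 against 0.77), where a score is the median deviation of the list from its mean level. The part of leukocyte content in the day difference was not tested.

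**Figure D2:**
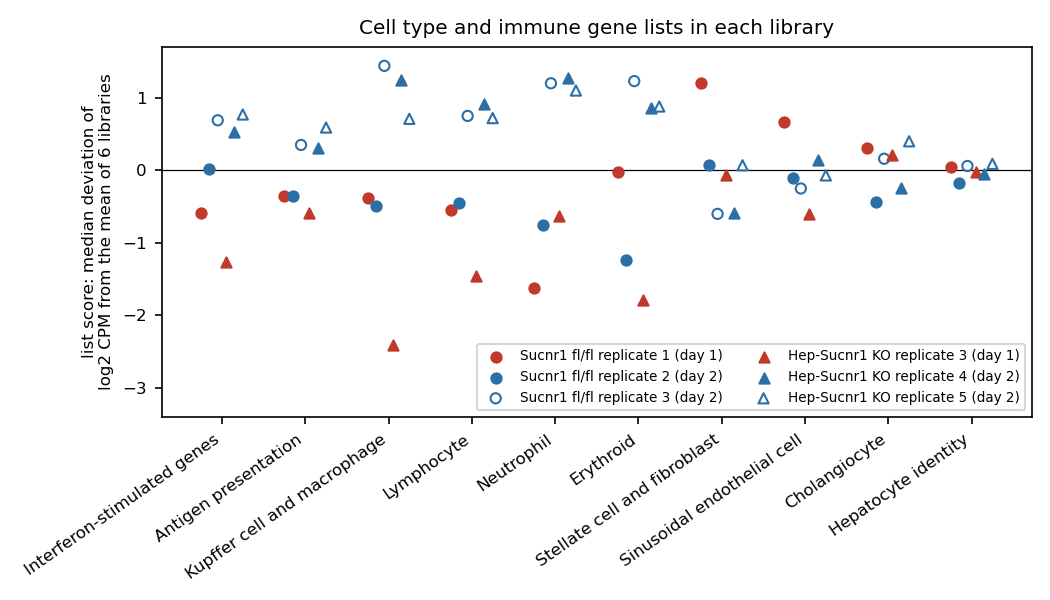
Score of 10 gene lists in each library, the median over list members of log2 CPM minus the mean of that gene in the 6 libraries. Red marks are day 1, blue marks day 2, circles Sucnr1 fl/fl and triangles Hep-Sucnr1 KO. Interferon scores were -0.59 and -1.27 on day 1 and 0.02 to 0.77 on day 2, whereas Kupffer cell scores of day 1 (-0.38 and -2.41) enclosed that of fl/fl replicate 2 (-0.49), and hepatocyte identity scores stayed between -0.17 and 0.09.

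Chemokine and checkpoint genes that interferon is known to induce were among those called lower by DESeq2. Cxcl10, a chemokine for T cells, had 166 and 122 CPM against 269, 436, 555 and 451 (-1.54 ± 0.31), and Cd274, which encodes PD-L1, 66.1 and 31.8 against 90.3, 173, 190 and 154 (-1.65 ± 0.41, and -0.95 without KO replicate 3). Cxcl10 was the only one of 20 NF-kB targets and chemokines that DESeq2 called (list median -0.38, or 0.06 without KO replicate 3, with 2 lower without overlap), and Sod2, the most abundant, differed by -0.07 ± 0.15. Among other genes, DESeq2 called lower Alas1, the rate-limiting enzyme of heme synthesis, which had 97.2 and 101 CPM against 183, 173, 273 and 171 (-1.0 ± 0.21). It also called Onecut1, a hepatocyte transcription factor (-1.77 ± 0.52, and -1.07 without KO replicate 3), Mmp13, a collagenase (-2.36 ± 0.43), Clic5 (-2.94 ± 0.51) and Misp (-2.66 ± 0.52). Cdc20, an activator of the anaphase-promoting complex, had 0.234 and 0.443 CPM against 1.44, 1.15, 1.36 and 1.52 (-2.04 ± 0.36) and was the only one of 24 cell cycle genes called. That list had a median of -0.36. In it 5 genes (20.8%) were lower and 1 (4.17%) higher without overlap, beside 8.51% and 6.29% of all genes. Pcna, the most abundant, differed by -0.02 ± 0.11. These genes, like the interferon genes other than those of the naming rule, were chosen after their values had been seen.

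Genes higher on day 1 were fewer and their differences smaller. The named genes with the smallest p in this direction were Fam107b, Bmp8b, Cyp17a1, Fgd4 and Grb7, all called by DESeq2 and with edgeR FDRs between 0.279 and 0.405. Fam107b (chromosome 2 from 3570488 to 3782142) had 195 and 165 CPM against 132, 109, 87.4 and 98.8 (0.76 ± 0.13). Bmp8b, a secreted factor of the BMP family, had 18.1 and 15.5 CPM against 11.7, 12.1, 8.59 and 9.02 (0.71 ± 0.12). Cyp17a1, a steroid hydroxylase, had 5.54 and 5.82 CPM against 2.83, 2.57, 1.98 and 2.64 (1.19 ± 0.21). The naming rule requires the lack of overlap between the days. Within each day the KO libraries lay below the fl/fl libraries in Fam107b and Bmp8b. Fgd4, a guanine nucleotide exchange factor for Cdc42, had 19.0 and 15.6 CPM against 12.99, 11.97, 8.30 and 10.1 (0.68 ± 0.14), and Grb7, an adaptor of receptor tyrosine kinases, 28.2 and 27.2 against 19.0, 17.1, 20.1 and 18.002 (0.58 ± 0.12).

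Ern1, Lpin2, Slc16a6, Foxa3 and Dsc2 were also among the 21. Ern1, which encodes the endoplasmic reticulum stress sensor IRE1, had 524 and 476 CPM against 368, 356, 283 and 303 (0.62 ± 0.13). Lpin2, a phosphatidate phosphatase, had 831 and 569 CPM against 408, 460, 328 and 431 (0.77 ± 0.17). Slc16a6, a ketone body transporter of hepatocytes, had 149 and 181 CPM against 60.4, 113, 80.2 and 74.5 (1.01 ± 0.24). None of these overlapped between the days. Foxa3, a hepatocyte transcription factor, differed by 0.82 ± 0.18 (0.45 without fl/fl replicate 1) and Dsc2, a desmosomal cadherin, by 0.74 ± 0.15. Ppargc1b, a coactivator of mitochondrial and lipogenic genes and not among the 21, differed by 0.95 ± 0.24 and was not called (DESeq2 adjusted p 0.067).

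Cholesterol synthesis genes and the other targets of SREBP2, the sterol-sensing transcription factor, leaned higher on day 1. All 25 were tested and had log2 fold changes of 0.01 or more, with a median of 0.24. Only 3 (12%) were higher without overlap, beside 6.29% of all genes. DESeq2 called 2, among them Sc5d, beside 0.154% of all genes called higher. Sc5d, a late enzyme of the pathway, had 480 and 401 CPM against 228, 296, 272 and 289 (0.70 ± 0.16). Insig1, a brake on SREBP, had 259 and 177 CPM against 121, 112, 154 and 162 (0.69 ± 0.22, and 0.17 without fl/fl replicate 1). The list median was 0.53 in fl/fl and 0.01 in KO, a difference that was not tested, and 0.00 without fl/fl replicate 1.

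**Figure D3:**
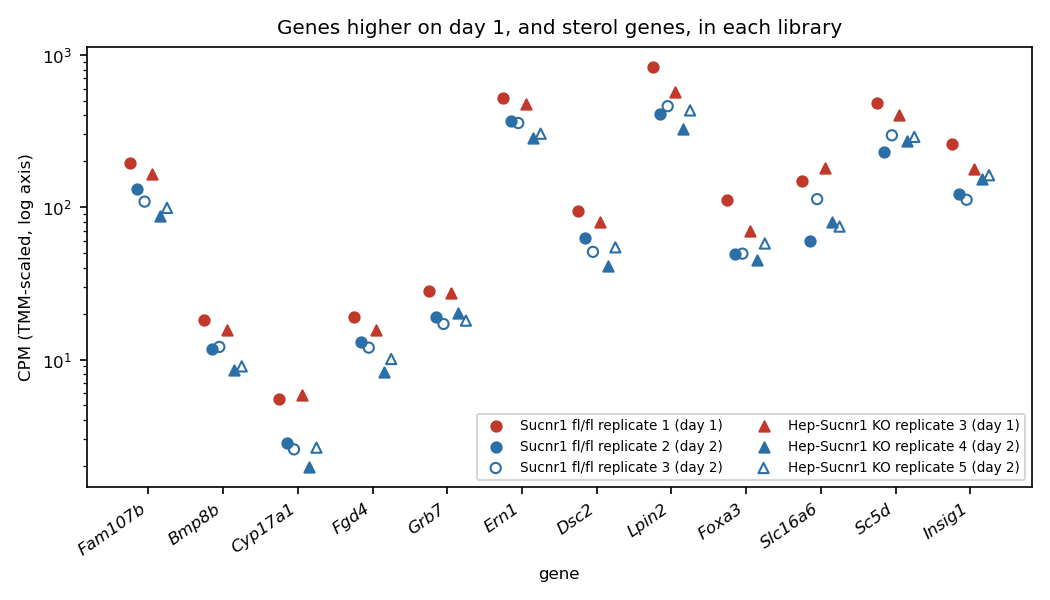
CPM (TMM-scaled, log axis) in each library of 10 genes that DESeq2 called higher on day 1 and of the sterol genes Sc5d, also called, and Insig1, not called. Red marks are day 1, blue marks day 2, circles Sucnr1 fl/fl and triangles Hep-Sucnr1 KO, and in every gene plotted both red marks lie above all blue marks.

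Stellate cell and fibroblast genes were higher in the fl/fl library of day 1. Of 15 listed 9 were tested, with a median of 1.13, 2 (22.2%) higher without overlap beside 6.29% of all genes, 4 at an unadjusted p below 0.05 and 0 called by either tool. Their summed level was 39.3 CPM in fl/fl replicate 1 and 14.2 in KO replicate 3 against 9.57 to 17.1 CPM on day 2. Reln, a secreted glycoprotein of stellate cells, had 9.36 and 2.31 CPM against 3.22, 2.41, 0.945 and 2.37 (1.18 ± 0.42, and 0.48 without fl/fl replicate 1), and Dcn, a matrix proteoglycan, 10.4 and 4.46 against 3.94, 1.98, 2.01 and 4.64 (1.17 ± 0.46, and 0.43 without fl/fl replicate 1). Colec11, a collectin, had 47 and 20 counts on day 1 against 8 to 14 on day 2. Lrat, the enzyme that stores retinol, had 16 counts or fewer in every library. The list median was 1.49 in fl/fl and 0.48 in KO, and 0.34 without fl/fl replicate 1. Ecm1, the most abundant member, differed by 0.54 ± 0.34. The 14 sinusoidal endothelial genes went opposite ways in the genotypes, with medians of 0.77 in fl/fl and -0.58 in KO (0.23 over both, 1 higher without overlap), and Cdh5, the most abundant, differed by -0.13 ± 0.38. The 9 cholangiocyte genes had a median of 0.08, with 0.35 ± 0.22 for Spp1, and of 6 mesothelial genes none passed the filter.

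Genes that were lower on day 1 in one genotype were mostly lower in the other as well. In fl/fl 593 genes were lower by more than a fold of 2 on day 1. Of them 426 (71.8%) were also lower in KO, with a median of -0.78, while 48.3% of all genes were lower in KO. Past a fold of 2 in KO were 275 (46.4%), beside 1086 of all 15105 genes. The 1086 genes lower in KO were lower in fl/fl in 848 cases (78.1%), against 53.6% of all genes. The same 275 made up 25.3% of them, beside 593 of all 15105 genes past that fold in fl/fl. Of 355 genes higher in fl/fl 186 (52.4%) were higher in KO, with a median of 0.03. Past a fold of 2 in KO were 20 (5.63%), beside 195 of all 15105 genes. Of these 195 genes 103 (52.8%) were higher in fl/fl. The share to set beside 52.4% and 52.8% is what remains of all genes after the 48.3% lower in KO and the 53.6% lower in fl/fl. Across the 15105 genes the 2 differences, which have no library in common, had a Pearson r of 0.293 and a Spearman rho of 0.145. Genes are not independent replicates, and the index series and the scaling were common to the libraries.

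**Figure D4:**
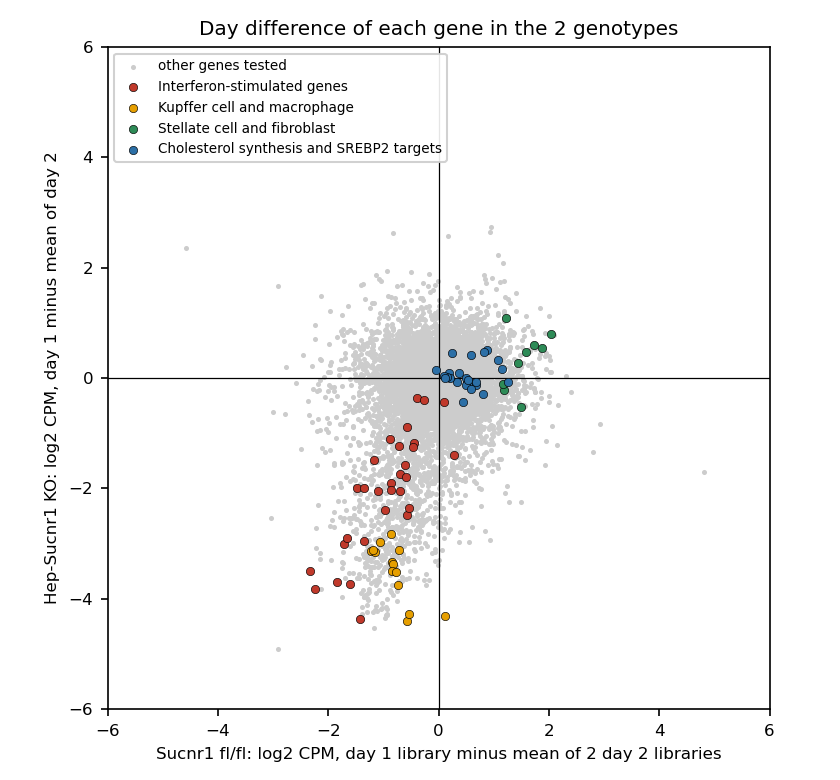
Difference of log2 CPM (prior count 2) between the day 1 library and the mean of the 2 day 2 libraries in Sucnr1 fl/fl (horizontal axis) and in Hep-Sucnr1 KO (vertical axis) for each of 15105 genes. Interferon-stimulated genes (red) lie in the lower left, with medians of -0.86 and -1.99, Kupffer cell genes (orange) lie lower in KO (-0.82 and -3.34), and stellate cell genes (green) lie to the right (1.49 and 0.48), as do sterol genes (blue, 0.53 and 0.01).

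A test of the difference between the genotypes in the day effect (the interaction) called 0 genes in edgeR, with 557 at an unadjusted p below 0.05, and 4 in DESeq2. These were Ntrk2, Fgfr3, Cdh5 and Tff3. Ntrk2, a neurotrophin receptor, had 4.16 and 0.0950 CPM in the fl/fl and KO libraries of day 1 and 0.120, 0.0659, 0.502 and 0.395 on day 2, so that fl/fl replicate 1 alone was high. Tff3, a trefoil peptide of bile duct cells, had 1.43 and 18.4 CPM against 6.29, 6.66, 5.17 and 8.29.

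Lists of hepatocyte functions had medians between -0.10 and 0.22. The 21 hepatocyte identity genes tested had a median of 0.01 with 0 outside the range of day 2 in either direction, and Alb differed by -0.05 ± 0.32. The list medians were 0.22 for gluconeogenesis (Pck1, 0.03 ± 0.20), 0.04 for glycogen metabolism (Pygl, 0.09 ± 0.13), 0.18 for glycolysis and ChREBP targets (Gapdh, 0.19 ± 0.24) and 0.19 for de novo lipogenesis (Scd1, 0.14 ± 0.27). They were -0.10 for fatty acid oxidation, -0.02 for the TCA cycle (Sdha, -0.01 ± 0.15), -0.03 for the nuclear genes of the respiratory chain (Atp5b, -0.01 ± 0.15), 0.08 for the urea cycle (Ass1, 0.12 ± 0.25) and 0.01 for amino acid catabolism (Hpd, -0.14 ± 0.22). The methionine cycle (0.03, Bhmt 0.27 ± 0.21), bile acid synthesis (0.00, Slc27a5 0.00 ± 0.15), apolipoproteins (0.01, Apoe -0.03 ± 0.19) and iron handling (0.06, Trf 0.12 ± 0.20) had medians between 0.00 and 0.06. In these lists no gene was called by either tool and at most 2 of a list were outside the range of day 2 in one direction.

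Zonation, clock, hormone and sex lists gave few calls. Pericentral landmarks had a median of -0.34 (0.09 without KO replicate 4) and periportal landmarks of 0.10, where Cyp17a1 was the only gene called by DESeq2. Cyp2e1, a pericentral enzyme, had 1169 and 1383 CPM against 2078, 1429, 3430 and 684, and Glul 539 and 398 against 646, 439, 1002 and 423, with most of the spread inside day 2. The periportal Cyp2f2 differed by 0.12 ± 0.27. Clock genes had a median of 0.12 and their output factors of 0.27, and Bhlhe40, a repressor of the clock, had 1088 and 895 CPM against 732, 832, 763 and 752 (0.36 ± 0.14). Dbp differed by 0.46 ± 0.27, Wee1 by 0.45 ± 0.30, Per1 by 0.31 ± 0.31 and Arntl by 0.12 ± 0.31. Medians were 0.25 for glucocorticoid targets (Mt2, 0.08 ± 0.21), 0.12 for the growth hormone axis (Igfbp1, 0.26 ± 0.24), -0.11 for male-biased genes (Serpina1e, 0.13 ± 0.19), -0.24 for 7 female-biased genes (Cyp4a10, -0.75 ± 0.41, and Cyp17a1 again called) and 0.05 for Y-linked genes. Of 20 CAR and PXR targets (-0.27, Cyp3a11 -0.39 ± 0.32) Alas1 alone was called, and of 7 AHR targets (0.05, Cyp1a2 -0.22 ± 0.52) none.

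Stress and culture lists had medians between -0.40 and 0.32. Medians were 0.11 for immediate early genes (Junb, 0.08 ± 0.17, and Fos, 0.08 ± 0.16), 0.05 for the heat shock response (Hspa8, 0.05 ± 0.15), -0.09 for the unfolded protein response (Hspa5, 0.17 ± 0.15), -0.40 for the integrated stress response (Cebpb, 0.05 ± 0.15), with -0.54 in fl/fl, 0.03 in KO and -0.02 without fl/fl replicate 1, and 0.11 for p53 targets (Mdm2, 0.11 ± 0.23). They were 0.32 for hypoxia (Ldha, 0.09 ± 0.18), or 0.14 without fl/fl replicate 1, -0.03 for NRF2 targets (Hmox1, 0.22 ± 0.16) and 0.16 for metallothioneins (Mt1, 0.18 ± 0.21), with 0 genes called in these lists. Dedifferentiation in culture had a median of -0.05 (Krt18, 0.28 ± 0.27), with Cd44, a leukocyte adhesion receptor too, called lower by DESeq2, and YAP targets of -0.13 (Ccn1, 0.11 ± 0.17), with Axl, a receptor that interferon is known to induce, called lower. The median was 0.02 for the acute phase response (Hpx, 0.04 ± 0.22, Saa1, 0.30 ± 0.19, and Hamp, 0.02 ± 0.27), and 0.07 for complement and coagulation (C3, 0.06 ± 0.21). Cyp7a1, the rate-limiting enzyme of bile acid synthesis, differed by -0.40 ± 0.55.

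Translation, matrix and RNA quality lists gave 0 calls. Medians were -0.02 for ribosomal proteins (Rps2, 0.02 ± 0.13), -0.04 for ribosome biogenesis (Ncl, 0.00 ± 0.16), -0.09 for the proteasome (Psmd8, -0.05 ± 0.16) and -0.08 for extracellular matrix and TGF-beta targets (Fn1, 0.24 ± 0.15). The mitochondrial genome had a median of -0.20 (mt-Co1, -0.18 ± 0.21), nuclear retained RNAs of 0.01 (Neat1, 0.47 ± 0.40, and Malat1, -0.04 ± 0.28) and replication-dependent histones of 0.11 (Hist1h2bc, 0.11 ± 0.26).

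**Figure D5:**
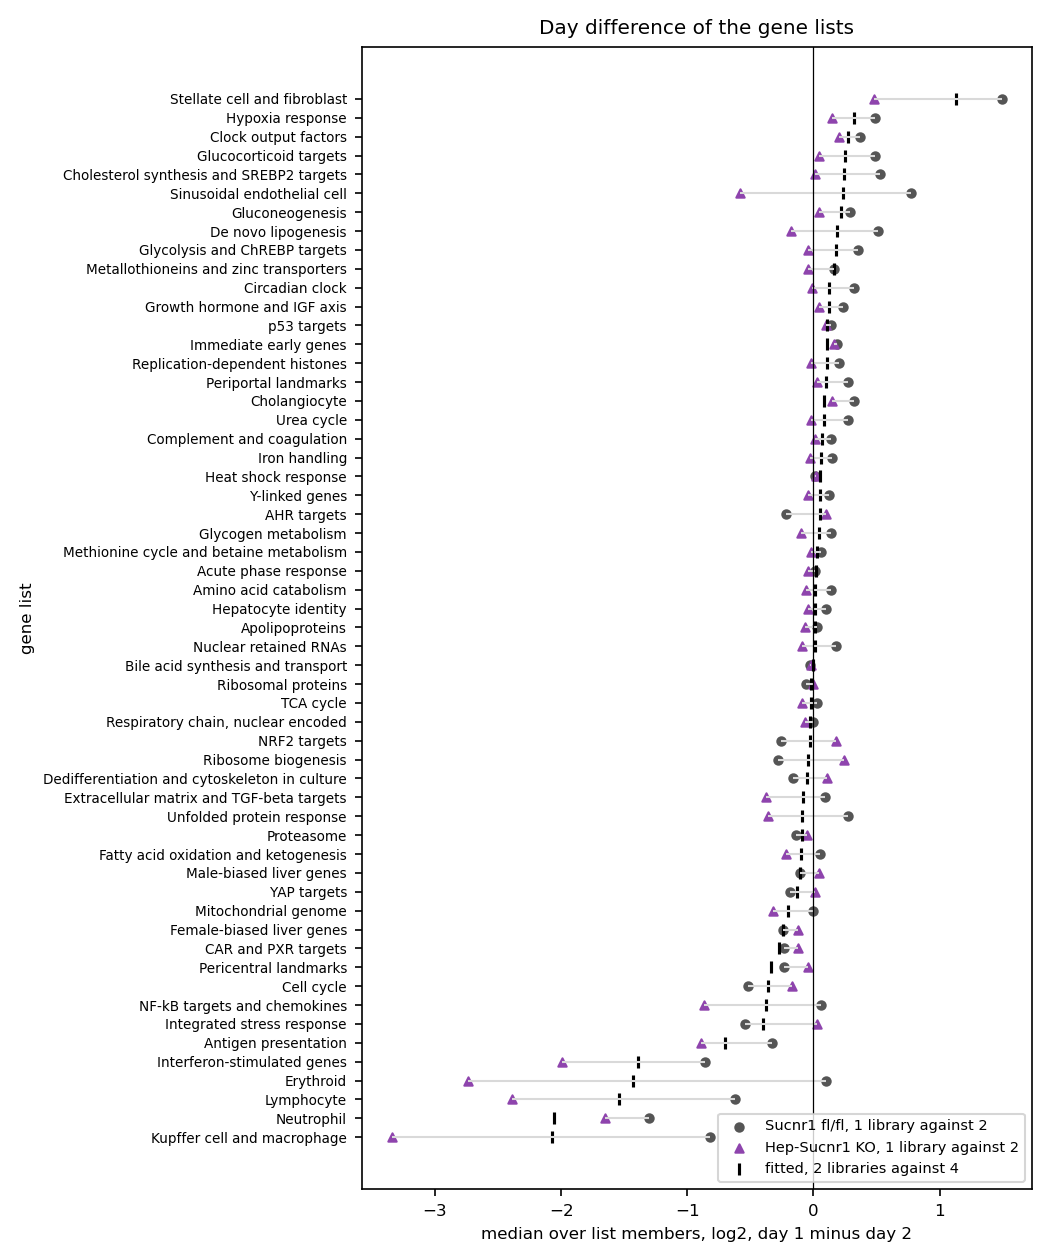
Median log2 difference, day 1 minus day 2, over the tested members of the gene lists with at least 3 of them. Circles are Sucnr1 fl/fl (1 library against 2), triangles Hep-Sucnr1 KO, and black bars the fit over all 6 libraries. In the fit over 6 libraries antigen presentation, interferon-stimulated and blood cell lists lie below -0.5, stellate cell genes above 1, and the other lists between -0.40 and 0.32. Single genotypes differ from this, with antigen presentation at -0.33 and erythroid genes at 0.10 in fl/fl, and stellate cell genes at 0.48 and NF-kB targets at -0.87 in KO.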

How the data were processed

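The authors trimmed reads (Trim Galore 0.6.7), aligned them to GRCm38 (STAR 2.7.10a), counted read pairs per gene by strand with featureCounts, and deposited raw counts of 25184 genes in 6 libraries, with no normalization. The setting for reads that match several genes is not given in the sources used here. Symbols came from GENCODE M21, which matched 25130 identifiers. The filter kept 15105 genes whose mean count, after DESeq2 size factors, exceeded 5. The day effect was tested with edgeR 4.0.16 (R 4.3.3; TMM, quasi-likelihood, genotype as covariate, Benjamini-Hochberg FDR 0.05), which left 3 residual degrees of freedom, and with DESeq2 1.42.0, the package of the study's methods, as an alternative. Values are log2 fold changes ± SE. The common biological coefficient of variation was 0.2061 at a depth of 30504248 to 38770694 counts, and counting error adds to it in genes with few counts. List scores and differences within a genotype used log2 CPM with a prior count of 2. Library measures were compared by exact permutation (SciPy 1.17.1). The edgeR and DESeq2 fits were tested on simulated counts first.

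The 58 gene lists and the naming rule were chosen with earlier results of these data known. The rule named the 5 genes with the smallest p in each direction among those with no overlap between the days and a mean of at least 1 CPM (since 0 passed the FDR), the most abundant gene of each list, and Sucnr1, Alb, Glul, Cyp2f2, Xist, Ddx3y, Dbp, Per1, Arntl, Fos, Saa1, Hamp, Cyp7a1, Mt1 and Malat1. Other genes were chosen after their values were seen. Some genes are not reported here. Alternatives covered the tool, scaling, filter, covariates, thresholds, a length offset and each library left out. For the interferon roles and families, chosen after seeing the data, leaving out each library was the only alternative.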

Additional observations from a re-analysis of the deposited data

Results flagged for a closer look

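Gaps among the 4 day 2 libraries were compared with Dixon's critical value for 4 samples, which chance passes in about 1 of 20 groups. It was passed by 1 of 8 library measures, 9 of 56 list scores and 16 of 153 named genes, and these are not independent, since most involve 1 library. Sucnr1 fl/fl replicate 2 was the lowest in the scores for neutrophil (gap over range 0.916), lymphocyte (0.86), erythroid (0.85), TCA cycle (0.92), respiratory chain (0.963), amino acid catabolism (0.838), apolipoprotein (0.87) and nuclear retained RNA (0.843) genes and the highest for ribosome biogenesis (0.971). It was also the lowest in log2 CPM of Ldha (0.914), Atp5b (0.884), Ifit3 (0.858), Ifit3b (0.864), Irf7 (0.832), Gbp2 (0.968), Slfn4 (0.841), Nlrc5 (0.86), H2-Aa (0.893) and Cd74 (0.881). Gbp2, for example, had 78.4 CPM there against 182 to 187 in the other day 2 libraries.

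Hep-Sucnr1 KO replicate 4 was the highest in Cyp3a11 (0.926), Alas1 (0.85) and the share of counts of genes with 1000 to 2000 exon bases (0.887), and the lowest in Ppargc1b (0.832). Hep-Sucnr1 KO replicate 5 was the lowest in Lama3 (0.836) and the highest in Misp (0.918) and Colec11 (0.832). What sets these libraries apart was not tested.

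The day difference itself differed between the genotypes, by the DESeq2 interaction test, in Ntrk2 (KO minus fl/fl, -7.61 on the log2 scale, adjusted p 0.00844), Fgfr3 (-2.01, adjusted p 0.0452), Cdh5 (-1.83, adjusted p 0.0452) and Tff3 (3.62, adjusted p 0.000114), none of which edgeR called. In 8 lists the day 1 score lay beyond both day 2 scores of its genotype, but in opposite directions in fl/fl and KO, which was not tested. Medians of opposite sign also occurred in other lists, such as erythroid genes (0.10 in fl/fl and -2.74 in KO) and NF-kB targets (0.06 and -0.87). In the medians of these 8 lists the genotypes differed as follows. KO minus fl/fl was -1.35 for sinusoidal endothelial genes, -0.63 for the unfolded protein response, 0.44 for NRF2 targets, -0.69 for de novo lipogenesis, -0.27 for fatty acid oxidation, -0.18 for iron handling, 0.52 for ribosome biogenesis and -0.47 for extracellular matrix genes. Each genotype has 1 day 1 library, so these differences are between single libraries.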

How the results depend on the processing

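The count of genes that differ by day was 0 in edgeR and also 0 with DESeq2 size factors, library size alone, filterByExpr, no genotype term, the index series as a further term, a robust fit, an FDR of 0.01 or 0.10, a fold threshold of 1.5 (glmTreat) and a length offset. It was 227 with DESeq2 and 122 with no filter on low counts (117 lower and 5 higher, of which 113 were also called by DESeq2), and leaving out 1 library gave 0 to 29, with 29 without Sucnr1 fl/fl replicate 2. The cause of these differences was not tested. With the index series in the model, 572 genes had an unadjusted p below 0.05 in place of 1132. The interaction count was 0, or 4 with DESeq2, and the correlation of the day differences between genotypes was 0.293, or 0.202 with no filter.

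Of 1008 alternative values of 56 list medians 950 moved by less than the SD of the list score over the 4 day 2 libraries and 58 by more. That SD spans both genotypes, and changes of sign were not counted. The pericentral median of -0.338 was 0.091 without Hep-Sucnr1 KO replicate 4, a move within that SD. Without Sucnr1 fl/fl replicate 1 the endothelial median went from 0.226 to -0.658 and that of de novo lipogenesis from 0.194 to -0.176. Medians kept their main value under the changed FDR thresholds, the robust fit and the fold threshold. The 950 therefore include values that do not test the stability of a median. Of 2752 values for 153 named genes 114 gained a call (56 with DESeq2, 44 with no filter, 14 without Sucnr1 fl/fl replicate 2). Among genes whose difference exceeded its SE, 7 turned direction, none of them called. With 1 library left out these ranged from -0.24 to 1.21 (Ecm1), -0.27 to 0.85 (Per1), -0.67 to 1.92 (Lrat) and -2.19 to 5.45 (Ntrk2), lowest without Sucnr1 fl/fl replicate 1, from -0.84 to 0.02 (Glul) and -1.42 to 0.28 (Irf1), highest without Hep-Sucnr1 KO replicate 3, and from -0.89 to 0.13 (Cyp2e1), highest without Hep-Sucnr1 KO replicate 4. The median of the interferon-stimulated list lay between -1.99 and -0.87 with 1 library left out. No paired analysis was possible because the only replicate number that occurs on both days, 3, belongs to mice of different genotypes. With 2 libraries on day 1, the edgeR fit had 3 residual degrees of freedom.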

Other observations

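Among the 133 genes that DESeq2 called lower and that stood in none of the interferon, antigen presentation or leukocyte lists, some were lower in the day 1 library of each genotype. Absence from those lists does not place a gene outside the interferon response. All genes named here were chosen after their values were seen, and none was called by edgeR. Lgals3bp, a secreted glycoprotein, had 52.98 and 48.4 CPM in the fl/fl and KO libraries of day 1 and 85.2, 99.3, 100.2 and 93.0 on day 2 (log2 fold change -0.90 ± 0.13 SE). Abr had 4.32 and 4.75 CPM against 8.001, 8.74, 9.215 and 10.5 (-1.0 ± 0.16). Pml, which forms nuclear bodies together with Daxx, had 20.6 and 12.3 CPM against 34.65, 43.0, 37.2 and 36.3 (-1.23 ± 0.19). The differences within fl/fl and within KO were -0.79 and -0.99 for Lgals3bp, -0.94 and -1.04 for Abr, and -0.90 and -1.57 for Pml. In these 3 genes fl/fl replicate 2 was close to the other day 2 libraries.

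Others had the order of libraries seen in the Kupffer cell list. Laptm5, a lysosomal protein of leukocytes, had 4.99 and 1.87 CPM on day 1 and 6.35 in fl/fl replicate 2, against 17.3, 17.0 and 13.5 in the other day 2 libraries (-2.0 ± 0.55). Spic, a transcription factor of macrophages that recycle iron, had 1.27 and 0.412 CPM and 1.81 in fl/fl replicate 2, against 6.20, 5.17 and 3.79 (-2.36 ± 0.65). In both genes fl/fl replicate 2 lay nearer to day 1 than to the rest of day 2.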
